A study of Mus musculus with 8 samples.

Results

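Chondrogenic condensation cells were described here in a pair of single-cell RNA-seq libraries from mouse forelimbs, 1 at embryonic day 12.5 (E12.5) and 1 at E13.5. A cell was taken as a member when at least 3 of the 6 genes *Sox5*, *Sox6*, *Sox9*, *Matn4*, *Wwp2* and *Scrg1* each had at least 1 unique molecular identifier (UMI, a tag that counts 1 captured transcript). This rule held for 939 of 4714 cells at E12.5 (19.9%, 95% interval 18.8 to 21.1) and for 1892 of 6123 cells at E13.5 (30.9%, 29.7 to 32.1), together 2831 of 10837 cells and of 53085 cells in the whole series. These members are called rule cells below, and each library's remaining cells, 3775 at E12.5 and 4231 at E13.5, are the other cells they were set against.

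Every embryo was C57BL/6J and carried Hic1CreERT2/CreERT2; Rosa26LSLtdTomato/tdTomato, so there was no group without these alleles. Tamoxifen given to the dam by gavage (7.5 mg) at embryonic day 10 let the *Hic1*-driven recombinase switch on tdTomato, a red fluorescent protein, which then stayed on in those cells and their descendants. The libraries hold tdTomato+ cells sorted after exclusion of blood and endothelial lineages, so condensation cells that never carried the label are not in them. The name condensation cells refers to the rule genes, since the place of a cell in the limb was not recorded. In sections, the authors saw labelled cells around the cartilage primordia and report no contribution to the primary cartilage elements. They also describe labelled chondroprogenitors as early as E12.5, by RNA and chromatin. Forelimbs of several embryos were pooled into 1 library per stage, and the limbs were dissociated with Dispase at E12.5 but with Collagenase A, Pronase and DNase at E13.5. The cells of a library are therefore not replicates, no test between stages was possible, and stage, library and enzyme cannot be told apart. All intervals are 95% intervals for counting error alone.

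In the limb bud, mesenchymal cells pack together into condensations that prefigure the skeleton. *Sox9* is the transcription factor required for this step and for cartilage, and *Sox5* and *Sox6* act with it on cartilage matrix genes such as *Col2a1*. *Matn4* encodes a matrilin of the extracellular matrix, *Wwp2* is a ubiquitin ligase whose gene hosts a cartilage microRNA, and *Scrg1* is expressed in differentiating chondrocytes. Condensations then become either cartilage, which goes on to secrete collagen II and aggrecan, or the interzone of a future joint, which expresses *Gdf5*.

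The 6 rule genes chose the cells, so their levels are given only as a description. In UMIs summed over cells and scaled to a total of 1000000 per group (CPM), *Sox9* was at 578 in rule cells and 107 in other cells at E12.5, and at 685 and 93.3 at E13.5. *Matn4* was at 434 against 13.2 and at 1265 against 44.6, and *Scrg1*, the rarest of the 6, at 20.2 against 0.310 and at 80.9 against 1.14. *Sox5* and *Sox6* lay between 146 and 201 CPM in rule cells at both stages, and *Wwp2* at 232 and 385 CPM. Each gene was also read in cells chosen by at least 3 of the other 5, and it was higher in the chosen cells in every case. The members were chosen with earlier results of these data known. This reading and the shares that follow are therefore also only a description and no check of the rule. The ratios then ran from 4.82 (4.62 to 5.03) for *Sox9* to 30.9 (19.8 to 50.7) for *Scrg1* at E12.5, and from 6.11 (5.89 to 6.34) to 33.6 (26.6 to 43.1) for the same genes at E13.5. At the reading of 3000 UMIs per cell, 72.2% of cells with a *Sox6* UMI also had a *Sox9* UMI at E12.5, compared with 27.7% of cells without *Sox6*. At E13.5 these shares were 77.9% and 31.6%.

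Because a deeper cell shows more genes, the rule was also applied after every cell had been thinned to 3000 UMIs. The shares were then 10.4% (9.56 to 11.3) at E12.5 and 22.2% (21.2 to 23.3) at E13.5. Rule cells were not the deeper cells: their median depth was 8499 UMIs against 8724 in other cells at E12.5, and 6427.5 against 6941 at E13.5. The median mitochondrial share was 2.40% against 2.37% and 2.30% against 2.48%. Read in the same way at 3000 UMIs, the rule held for 9.42% of sorted E11.5 cells, 5.62% at E14.5, and 6.63% and 4.03% in the proximal and distal E16.5 libraries. Of these sorted libraries the E13.5 one had the largest share, although the E14.5 and E16.5 libraries were made with a later version of the capture kit. In the 2 libraries of lineage-negative cells from whole E11.5 limbs, taken without a gate on tdTomato, 9 of 727 and 5 of 788 rule cells had at least 3 of 8 myogenic markers, and 3 in each had at least 3 of 8 epithelial markers. At 3000 UMIs these were 0 of 248 and 0 of 280 for myogenic markers, which allows up to 1.21% and 1.07%, and 1 and 0 for epithelial markers.

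**Figure D1:**
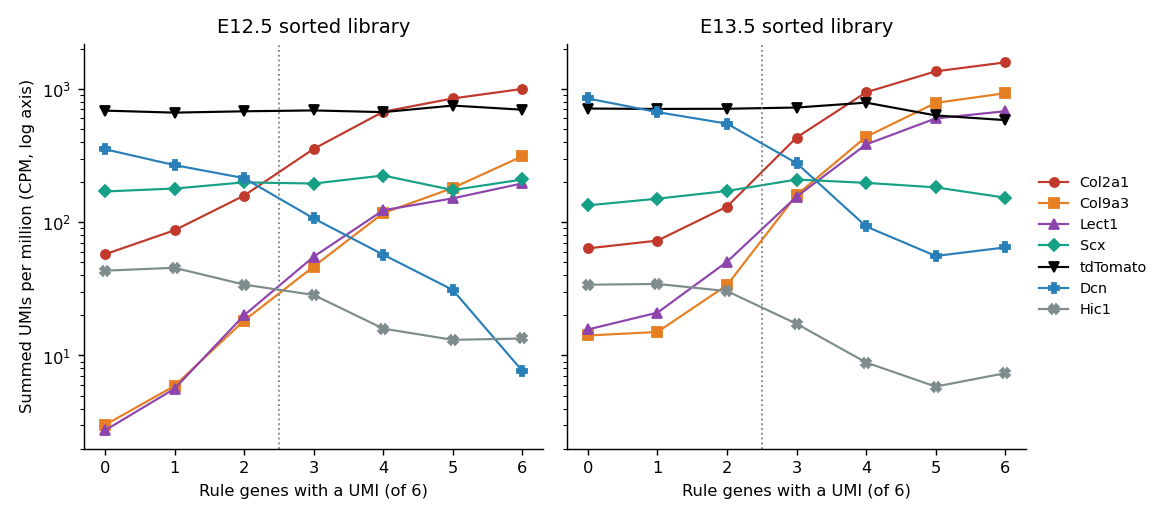
CPM of summed UMIs (log axis) against the number of rule genes with a UMI in a cell, from 0 to 6, for the E12.5 and the E13.5 library. The dashed line marks the threshold of the rule: *Col2a1* climbs from 57.4 to 998 CPM at E12.5 and from 63.6 to 1579 CPM at E13.5, *Dcn* and *Hic1* run the other way, and tdTomato stays between 663 and 749 CPM at E12.5 but goes from 788 CPM at 4 genes to 583 CPM at 6 genes at E13.5.

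The cells on either side of the threshold were compared as a description of where it cut. At E12.5, 641 cells with 2 rule genes lay just outside and 340 cells with 3 lay just inside, and *Col2a1* stood at 158 and 354 CPM in them. At E13.5 there were 822 and 496 such cells, with *Col2a1* at 131 and 431 CPM. *Col2a1* kept climbing within the rule cells, to 998 CPM in the 55 cells with all 6 genes at E12.5 and to 1579 CPM in the 334 such cells at E13.5. The summed level of the 22 genes of a cartilage matrix list had a median per cell of 1039 CPM just inside and 410 CPM just outside at E12.5, and of 1656 and 469.5 CPM at E13.5. The level of *Col2a1* thus rose with the number of rule genes, and the members nearest the cut held less cartilage transcript than the rest. Single cells spread widely: at E13.5 the summed list ran from 182 to 6818 CPM (5th to 95th percentile) in cells with 3 rule genes. Whether the cells form a gradient or a mix of groups was not tested.

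Most of the cartilage matrix genes tested, which the rule did not use, were higher in rule cells at both stages. A gene was tested where either group reached 10 CPM and was called at a ratio of 1.5-fold whose interval left out 1. By this measure, 8 of the 10 list genes tested at E12.5 were higher in rule cells and 1 was lower, whereas 4.45% of all 8682 genes tested were higher, 5.4% lower and 9.85% called in either direction. At E13.5, 18 of 19 were higher and 0 lower, whereas of 8801 genes 6.31% were higher, 7.04% lower and 13.4% called either way. The median log2 ratio of the list was 2.91 and 3.89, compared with −0.01 and 0.00 over all genes tested. The other 12 list genes at E12.5 and 3 at E13.5 were below 10 CPM in both groups. Some genes met this minimum only through the rule cells, which favours a call of higher, so the counts are a description. At E12.5 these included *Col9a3* and *Lect1* (6.90 and 6.98 CPM in other cells). At E13.5 they included *Matn1*, *Acan* and *Hapln1* (2.21, 1.45 and 1.10 CPM). *Col2a1*, *Col9a1*, *Col9a2*, *Col11a1* and *Fibin* were above 10 CPM in other cells at both stages. With no minimum level the medians were 2.82 and 3.84. Per cell, the summed list had a median of 1971 CPM in rule cells (5th to 95th percentile 344 to 5738) and 226 CPM in other cells (0 to 1190) at E12.5, and of 4150 CPM (518 to 13109) and 320 CPM (0 to 1442) at E13.5. The ranges of single cells overlapped at both stages.

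*Col2a1*, the gene of the main cartilage collagen (GRCm38 chr15:97975602-98004695, minus strand), was at 615 CPM in rule cells and 87.2 CPM in other cells at E12.5, a ratio of 7.06 (6.75 to 7.38). At E13.5 it was at 1043 and 81.3 CPM, a ratio of 12.8 (12.3 to 13.4). At 3000 UMIs, 87.4% of rule cells and 24.96% of other cells had a *Col2a1* UMI at E12.5, and 91.6% and 24.3% at E13.5. Free RNA can add single UMIs to cells that do not express a gene, and neither of these libraries held a group of cells of another lineage in which to read that level. In the whole E11.5 limbs, at the same 3000 UMIs, 4.35% of 46 and 0 of 32 cells with 3 myogenic markers had a *Col2a1* UMI, the latter allowing up to 9.38%, as did 15.4% of 13 and 9.09% of 11 cells with 3 epithelial markers. The median depths of the myogenic cells before thinning were 11326 and 9836 UMIs, and these were libraries of another stage and capture. Over the clusters described further on, *Col2a1* was lowest at 49.6 CPM at E12.5 and 53.5 CPM at E13.5.

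The collagens that assemble with collagen II followed the same direction. *Col9a3* had a ratio of 17.0 (14.8 to 19.7) at E12.5 and 29.9 (27.5 to 32.5) at E13.5, the largest of the chains of collagens II, IX and XI at both stages. *Col9a1* was at 229 against 24.6 CPM and at 481 against 38.7 CPM, and *Col9a2* was 6.32 and 7.21 times as high as in other cells. *Col11a1* was 3.99 and 5.89 times as high. *Col11a2* was under the threshold of 10 CPM at E12.5 (5.05 against 1.46 CPM) and at 43.8 against 2.97 CPM at E13.5. *Lect1*, which encodes chondromodulin, an inhibitor of vessel growth in cartilage, was at 109 against 6.98 CPM and at 440.3 against 25.1 CPM. *Fibin*, a secreted factor of the fin and limb bud, was at 519 against 64.6 CPM and at 758 against 83.9 CPM. *Papss2*, which makes the sulphate donor for proteoglycans, had ratios of 9.96 (8.02 to 12.4) and 13.9 (12.1 to 16.2). Not every matrix gene of the list separated the groups: *Hspg2*, the perlecan gene, had ratios of 0.76 (0.62 to 0.92) and 1.17 (1.02 to 1.35).

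**Figure D2:**
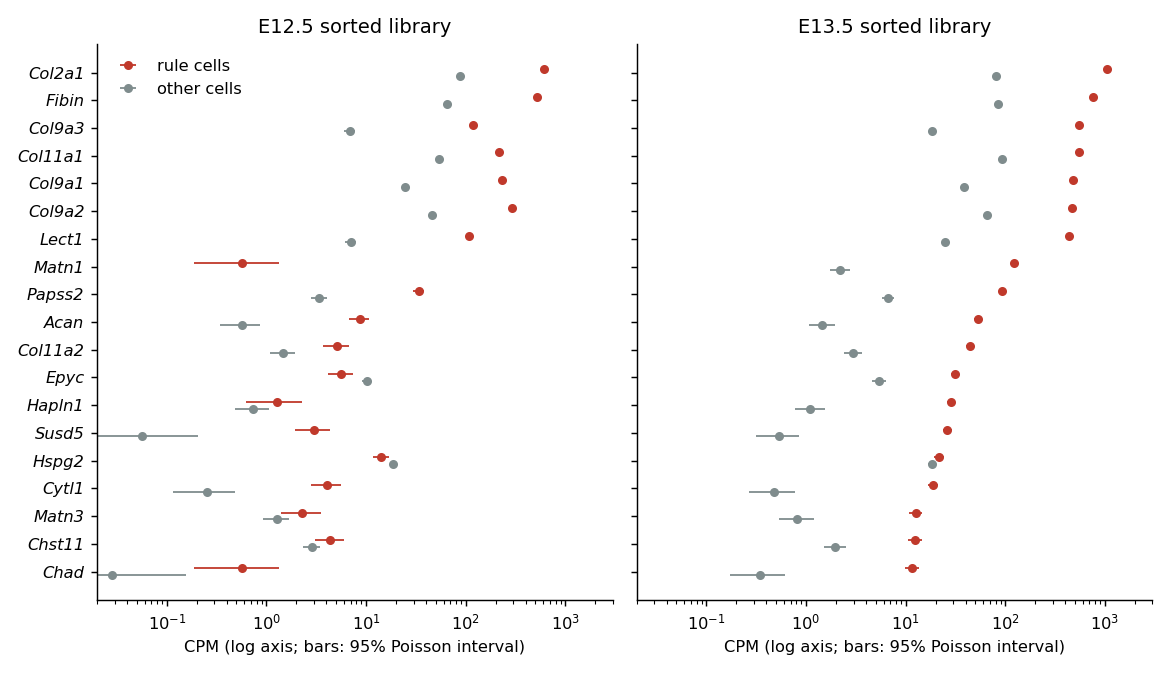
CPM of summed UMIs (log axis) of the cartilage matrix genes in rule cells and other cells at E12.5 and E13.5, with bars for the exact 95% Poisson interval. *Col2a1*, *Col9a3* and *Lect1* lie far to the right in rule cells at both stages, while *Matn1*, *Acan* and *Hapln1* reach 121, 52.8 and 28.6 CPM in the E13.5 rule cells and stay under 10 CPM in the other 3 groups.

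A second set of matrix genes was scarce at E12.5 and at higher levels in rule cells at E13.5. *Matn1*, a matrilin of mature cartilage (chr4:130944385-130955475, plus strand), had 5 UMIs in all rule cells and 0 in other cells at E12.5. The exact interval of the ratio had a lower limit of 3.74. At E13.5 *Matn1* was at 121 CPM in rule cells and 2.21 CPM in other cells, a ratio of 54.9 (43.2 to 70.7), the largest of any named gene outside the rule. The ratio of E13.5 to E12.5 within rule cells was 211 (90.2 to 651). In other cells *Matn1* also rose between the stages, from 0 to 70 UMIs. *Acan*, the aggrecan gene, rose from 8.61 to 52.8 CPM in rule cells, and *Hapln1*, whose product links aggrecan to hyaluronan, from 1.26 to 28.6 CPM. Their ratios between stages were 6.13 (4.83 to 7.88) and 22.7 (12.5 to 45.8). *Matn3*, *Chad*, *Cytl1*, *Susd5* and *Chst11* were all under 5 CPM in rule cells at E12.5 and between 11.6 and 26.1 CPM at E13.5. *Mia*, a secreted cartilage protein outside the list, rose from 12.9 to 67.0 CPM, a ratio of 5.21 (4.28 to 6.40).

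*Epyc*, which encodes the small leucine-rich proteoglycan epiphycan (chr10:97644068-97682454, plus strand), changed side between the stages. At E12.5 it was at 5.63 CPM (49 UMIs) in rule cells and 10.1 CPM (360 UMIs) in other cells, a ratio of 0.56 (0.40 to 0.75). At E13.5 it was at 31.3 and 5.43 CPM, a ratio of 5.77 (4.83 to 6.93). The E12.5 value was below the threshold in 5 of 12 other settings, 2 of which changed only the fold or the CPM minimum. Its log2 ratio ran from −2.93 in cells thinned to 3000 UMIs to −0.23 without mitotic cells. *Matn1* and *Epyc* had the largest stage ratio and the reversed direction within the list, so the RefSeq sequences of the 250 bases before their annotated starts are shown (GRCm38.p6, 5′ to 3′). Capitals mark ACAATG or its reverse complement CATTGT, a form of the motif that Sox proteins of the SoxD and SoxE groups can bind.

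Epyc, start 1, chr10:97643818-97644067, plus strand: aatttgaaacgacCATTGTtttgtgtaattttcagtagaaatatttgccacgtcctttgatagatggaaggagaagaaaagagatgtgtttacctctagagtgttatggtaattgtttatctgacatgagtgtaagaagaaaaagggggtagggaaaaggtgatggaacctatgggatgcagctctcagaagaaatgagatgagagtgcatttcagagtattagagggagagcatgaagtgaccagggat
Epyc, start 2, chr10:97646853-97647102, plus strand: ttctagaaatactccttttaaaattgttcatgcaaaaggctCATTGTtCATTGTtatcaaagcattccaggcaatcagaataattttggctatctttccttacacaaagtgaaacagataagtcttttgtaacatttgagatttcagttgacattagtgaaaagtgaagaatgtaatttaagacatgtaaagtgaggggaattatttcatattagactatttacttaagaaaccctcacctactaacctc
Matn1, chr4:130944135-130944384, plus strand: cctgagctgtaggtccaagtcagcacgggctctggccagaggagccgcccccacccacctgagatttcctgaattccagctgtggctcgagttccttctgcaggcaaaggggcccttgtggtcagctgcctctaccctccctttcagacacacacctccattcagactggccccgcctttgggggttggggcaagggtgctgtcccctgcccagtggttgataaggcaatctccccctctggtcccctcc

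The letters occurred 1 time before the one *Epyc* start, 2 times before the other and not in the *Matn1* window. Of 21 windows of 18 cartilage genes with a promoter in the table, these 2 *Epyc* windows were the ones with a match. Across windows of the same length, the letters were in 10.7% of all 32851, in 5.82% of those of genes tested at E13.5 and in 5.59% of those of genes higher in rule cells. A match is a description of the sequence and not a binding site.

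The regulators linked with condensation and chondrogenesis were less uniform. Of 15 tested at E12.5, 6 were higher and 2 lower in rule cells, and of 17 at E13.5, 7 were higher and 5 lower, with median log2 ratios of −0.03 and 0.13. The shares over all genes tested are those given for the cartilage list, 4.45% higher and 5.4% lower at E12.5 and 6.31% and 7.04% at E13.5, and they hold for each list that follows. *Trps1*, a GATA-type repressor of chondrocyte maturation, was at 375 against 148 CPM and at 354 against 143 CPM. *Foxc1* was 4.43 (3.90 to 5.03) and 3.07 (2.77 to 3.41) times as high, and *Foxc2*, a related forkhead factor, was under the threshold at E12.5 and 4.86 (4.02 to 5.89) times as high at E13.5. *Vcan*, the large proteoglycan of precartilage mesenchyme, had ratios of 2.96 and 1.91. *Prrx1*, a factor of undifferentiated limb mesenchyme, was lower, at 179 against 332 CPM and 174 against 367 CPM. The adhesion molecules of condensation were not raised at the RNA level: *Cdh2* (N-cadherin) had ratios of 0.98 and 0.80, and *Ncam1* was lower, with ratios of 0.37 (0.33 to 0.41) and 0.36 (0.33 to 0.39). *Mef2c*, a factor of chondrocyte hypertrophy, was 5.17 (4.54 to 5.89) and 4.92 (4.44 to 5.45) times as high.

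Of the genes linked with hypertrophy and bone, *Col10a1*, *Ihh* and *Sp7* were near or at 0, while others were measured in rule cells. *Col10a1*, the collagen of hypertrophic chondrocytes, had 0 UMIs in all groups, which allows up to 0.345 CPM in E12.5 rule cells and 0.219 CPM in E13.5 rule cells. *Ihh*, the signal of prehypertrophic chondrocytes, had no UMI in rule cells at E12.5 and stood at 0.438 CPM at E13.5. *Sp7*, a factor of bone-forming cells, was at 1.61 and 1.90 CPM. *Runx2* was at 23.0 against 15.1 CPM at E12.5, a call lost in 5 of 12 other settings, and at 23.3 against 21.8 CPM at E13.5. Of the hypertrophic and osteogenic list, 2 of 4 tested genes were higher (*Mef2c* and *Runx2*) and 1 lower at E12.5, and 2 of 5 higher (*Mef2c* and *Dlx5*) and 2 lower at E13.5, with *Pth1r*, the receptor of the PTHrP signal, lower at both stages (0.64 and 0.61). The 5 hedgehog pathway genes tested, *Ptch1* and *Gli1* among them, passed the threshold at neither stage.

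In the list of BMP and GDF signalling, 6 of 19 genes were higher and 2 lower at E12.5, and 8 higher and 3 lower at E13.5. This list held ligands, antagonists, receptors, Smads and the Id genes, and *Bmpr1b* at E12.5 and the Id genes at E13.5 were among the higher ones. The ligand *Gdf5* was at 38.7 against 18.5 CPM and at 57.2 against 17.0 CPM, and *Bmp5* at 39.6 against 13.7 CPM and at 70.5 against 18.9 CPM. *Bmp7* was lower in rule cells, with ratios of 0.37 and 0.34, and *Bmp4* was lower at E13.5, with 18.3 against 38.2 CPM. *Nog*, the BMP antagonist of condensations, was at 27.9 against 10.9 CPM at E12.5, a ratio of 2.57 (2.18 to 3.02), and at 47.9 against 3.16 CPM at E13.5, a ratio of 15.2 (12.3 to 18.9). The level went up in rule cells and down in other cells between the stages, with ratios of 1.72 (1.48 to 2.00) and 0.29. *Bmper*, another extracellular BMP modulator, was at 76.2 against 13.4 CPM and at 74.3 against 13.9 CPM.

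The Id genes, which are transcribed in response to BMP signals, passed the threshold at E13.5 and not at E12.5. *Id1*, *Id2* and *Id3* had ratios of 0.95, 0.82 and 0.90 at E12.5. At E13.5 they were 2.52 (2.40 to 2.65), 1.67 (1.62 to 1.72) and 2.47 (2.41 to 2.54). None of the 3 was more abundant at E13.5: *Id1* went from 1154 to 243 CPM in rule cells and from 1213 to 96.3 CPM in other cells, and *Id3* from 1949 to 848 CPM and from 2172 to 343 CPM. *Smad6* and *Smad7* also fell in both groups.

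**Figure D3:**
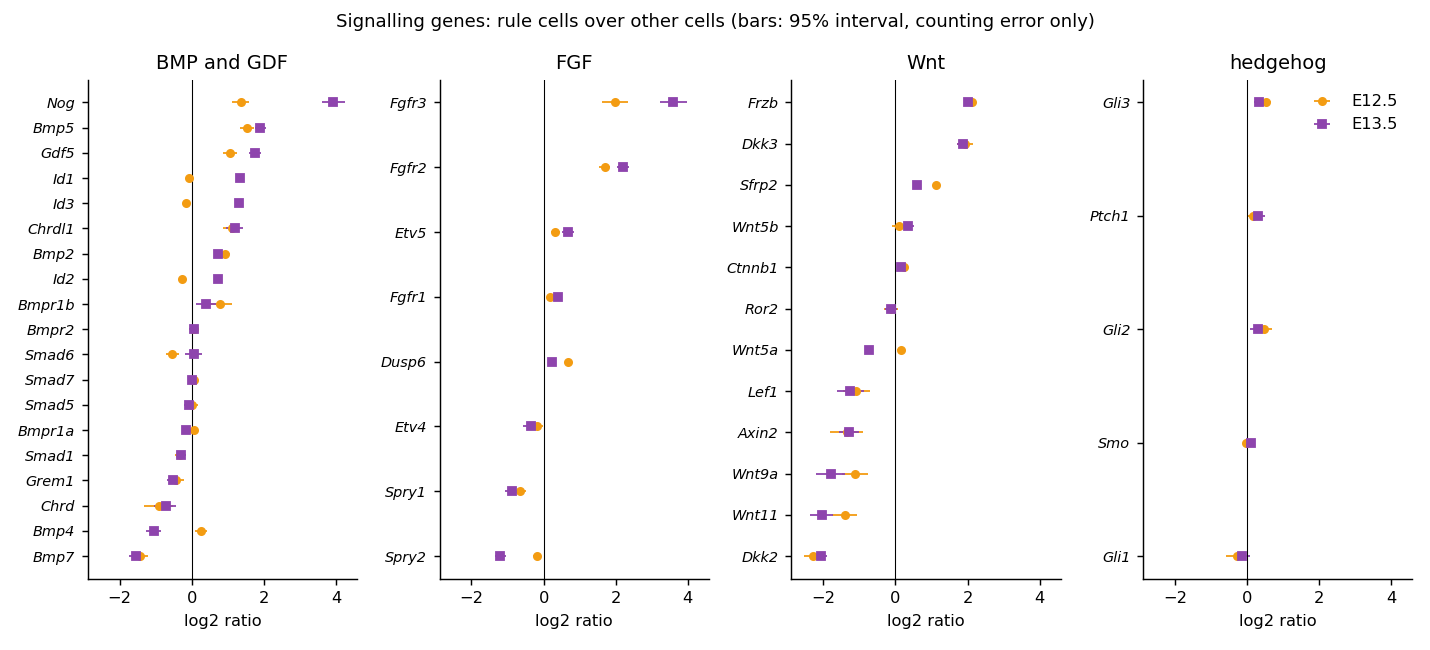
Log2 ratio of rule cells to other cells at E12.5 and at E13.5 for genes of the BMP and GDF, FGF, Wnt and hedgehog lists, with 95% intervals for counting error alone. *Nog* and *Fgfr3* have larger ratios at E13.5 than at E12.5, and *Id1* and *Id3* go from slightly lower in rule cells at E12.5 to higher at E13.5.

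Of the FGF receptors, *Fgfr3*, the receptor of proliferating chondrocytes, was at 15.4 against 3.89 CPM and at 28.1 against 2.34 CPM, with ratios of 3.96 (3.10 to 5.06) and 12.04 (9.37 to 15.7). *Fgfr2* was 3.23 (2.89 to 3.62) and 4.62 (4.10 to 5.21) times as high, whereas *Fgfr1* had ratios of 1.14 and 1.32. The FGF feedback gene *Spry1* was lower at both stages, with ratios of 0.63 and 0.54. Other genes of the FGF list were mixed: *Dusp6* was higher at E12.5 and *Etv5* at E13.5, while *Spry2* was lower at E13.5. In the list of 8 FGF genes, 3 were higher and 1 lower at E12.5, and 3 higher and 2 lower at E13.5. Of 12 Wnt genes, 3 were higher at each stage, and 5 and 6 were lower. The 3 higher genes were the secreted Wnt antagonists *Frzb* (4.39 and 4.07) and *Sfrp2* (2.17 and 1.503) and the Dickkopf family member *Dkk3* (3.80 and 3.68). *Sfrp2* at E13.5 lay on the threshold and was under it when cells were thinned to 3000 UMIs or weighted for depth, and with at least 4 rule genes or 5000 UMIs. The Wnt target *Axin2* was at 5.17 against 13.01 CPM and at 8.83 against 21.5 CPM, and *Lef1*, *Wnt9a*, *Wnt11* and *Dkk2* were lower as well.

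Some progenitors of tendon and cartilage express *Scx*, the tendon transcription factor, together with *Sox9*. *Scx* was at 200.4 against 179 CPM at E12.5 and at 188 against 148 CPM at E13.5, and the ratios of 1.12 and 1.27 were under the threshold. At 3000 UMIs, 38.7% (34.4 to 43.2) of rule cells and 36.7% of other cells had an *Scx* UMI at E12.5, and 29.5% and 29.0% at E13.5. Both *Scx* and *Col2a1* were seen in 33.8% (29.6 to 38.2) of rule cells and 9.19% of other cells, and at E13.5 in 24.98% and 8.25%. These joint shares follow the difference in *Col2a1*, since *Scx* alone was about as frequent in both groups. *Six2*, a homeobox factor of the tendon list, was at 41.3 against 6.00 CPM and at 88.1 against 6.97 CPM, with ratios of 6.89 (5.80 to 8.20) and 12.6 (10.9 to 14.6). *Kera*, which encodes the proteoglycan keratocan, was lower, at 27.6 against 103 CPM and at 50.8 against 225 CPM. Over the whole list of 12 tendon markers, 4 of 10 tested genes were higher and 2 lower at E12.5, and 3 of 11 higher and 4 lower at E13.5. Their summed level was 955 CPM in rule cells and 684 CPM in other cells at E12.5, and 797 and 778 CPM at E13.5. At 3000 UMIs, 32.2% (28.1 to 36.5) of rule cells and 15.98% of other cells had at least 3 of these markers at E12.5, and 21.6% (19.4 to 23.9) and 16.7% at E13.5. *Egr1* and *Egr2*, immediate early genes in that list, were higher at E12.5 alone. They count in the summed level and in the marker shares, and the shares without them were not read. Besides *Six2*, *Mkx* was higher at both stages and *Fmod* at E13.5. Besides *Kera*, *Htra3* was lower at both stages, and *Thbs4* and *Thbs2* at E13.5.

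Fibrous connective tissue genes were lower in rule cells. Of 12 tested, 7 were lower and 1, *Col12a1*, was higher at both stages. *Dcn*, the decorin gene, was at 66.4 against 294 CPM and at 126 against 712 CPM, with ratios of 0.23 (0.21 to 0.25) and 0.18 (0.17 to 0.19). *Lum* (lumican) had ratios of 0.21 and 0.30, and *Postn* (periostin) of 0.32 and 0.14. *Osr1*, a factor of irregular connective tissue, was at 50.2 against 110.3 CPM and at 76.6 against 237 CPM. *Col1a1* was under the threshold, at 492 against 577 CPM and at 619 against 748 CPM, so the rule cells still carried type I collagen transcripts. At least 3 of the 15 markers were seen in 79.8% of rule cells and 92.4% of other cells at E12.5, and in 79.9% and 93.4% at E13.5, at 3000 UMIs. Among genes at 50 CPM or more in either group, those with the smallest ratios outside this list included *Nbl1*, a BMP antagonist (0.20 and 0.18), *Igfbp3* (0.20 and 0.23), *Ebf2* (0.20 and 0.21), *Nrtn* (0.21 and 0.30) and, at E13.5, *Ngfr* (0.16), *Chodl* (0.19) and *Cited1* (0.21).

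Genes that report position in the limb also differed. *Tbx5*, the forelimb factor, was at 331 against 178 CPM and at 272 against 138 CPM, and *Meis1*, a proximal factor, was 1.57 (1.31 to 1.88) and 2.15 (1.75 to 2.66) times as high. *Meis2* did not differ at E12.5 beyond counting error, with a ratio of 1.01 (0.88 to 1.16), but was 3.51 (3.06 to 4.04) times as high at E13.5. In other cells it fell from 28.3 to 10.9 CPM between the stages. The distal genes *Hoxd12* and *Hoxd13* were lower in rule cells, with ratios of 0.26 and 0.33 for *Hoxd12* and 0.33 and 0.36 for *Hoxd13*. *Hoxa11*, *Lhx2*, *Lhx9* and *Lmx1b* were lower at both stages. In all, 2 of 17 tested position genes were higher and 7 lower at E12.5, and 3 of 16 higher and 7 lower at E13.5.

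*Hic1*, the gene whose promoter drove the label, was itself lower in rule cells (chr11:75164565-75169519, minus strand). It was at 19.8 CPM (172 UMIs) against 42.5 CPM (1509 UMIs) at E12.5, a ratio of 0.46 (0.39 to 0.54). At E13.5 it was at 9.93 CPM (136 UMIs) against 33.4 CPM (1058 UMIs), a ratio of 0.30 (0.25 to 0.36). Within rule cells it went down between the stages, with a ratio of 0.50 (0.40 to 0.63), and in other cells the ratio was 0.79. The label itself did not pass the threshold at either stage: tdTomato was at 697 against 676 CPM and at 687 against 709 CPM. At 3000 UMIs a UMI of it was seen in 77.8% (73.9 to 81.4) of rule cells and 77.4% (76.1 to 78.7) of other cells at E12.5, and in 75.8% (73.5 to 78.1) and 79.7% (78.5 to 80.8) at E13.5, where rule cells were the lower. The level of *Hic1* also fell with the number of rule genes, from 43.3 CPM at 0 genes to 13.4 CPM at 6 genes at E12.5, and from 33.9 to 7.36 CPM at E13.5.

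**Figure D4:**
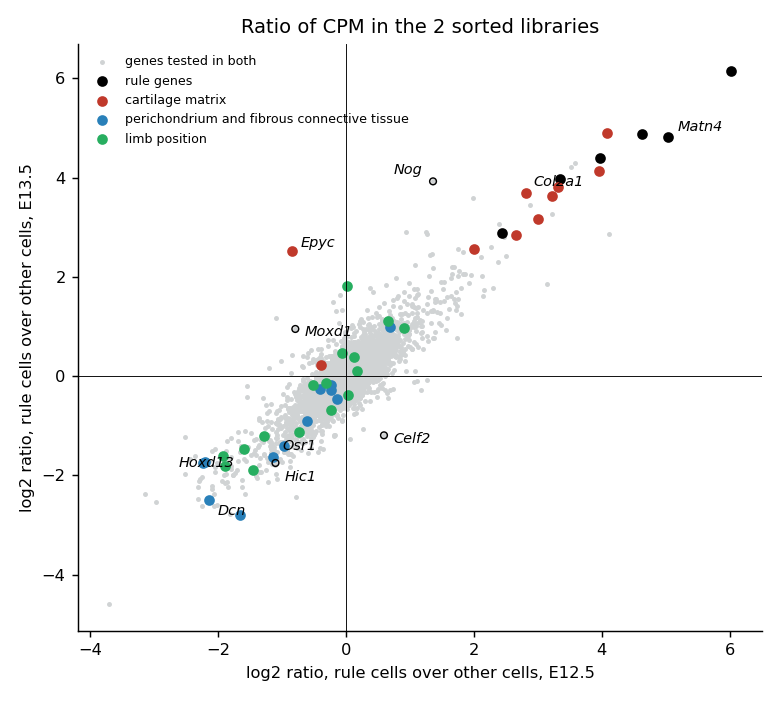
Log2 ratio of rule cells to other cells at E12.5 (horizontal) and at E13.5 (vertical) for the 8410 genes above 10 CPM in both comparisons, each point 1 gene. Matrix genes such as *Col9a3* sit at the upper right, *Dcn* and *Postn* at the lower left, and *Epyc* at the upper left.

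In all, 266 genes were higher in rule cells at both stages, which was 68.9% of the 386 higher at E12.5 and 47.9% of the 555 higher at E13.5. Among all genes tested, 4.45% were higher at E12.5 and 6.31% at E13.5. For lower genes, 324 were shared, 69.1% of 469 and 52.3% of 620, whereas 5.4% and 7.04% of all genes tested were lower. The same 6 genes chose the cells at both stages, so the lists of the stages are not independent. The libraries had 42 cell barcodes in common, 37 of them among cells kept in both.

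Between the stages, the cartilage list rose within the rule cells. With E13.5 set against E12.5, 18 of 19 tested list genes were higher in rule cells (of 8696 genes 5.73% were higher, 6.52% lower and 12.2% called either way), with a median log2 ratio of 2.23. *Fibin*, at 1.46 (1.41 to 1.51), was the exception. In other cells 4 of 9 were higher and 1 lower, with a median of 0.50, and of 8745 genes 4.31% were higher, 5.99% lower and 10.3% called either way. The list genes tested in other cells were a smaller set, so the medians are not of the same genes. Within rule cells, *Matn1*, *Acan*, *Hapln1* and *Epyc* were under 10 CPM at E12.5 (0.574, 8.61, 1.26 and 5.63 CPM). They and further list genes were tested only through their E13.5 level, which favours a call of higher. Some genes rose alike in both groups: *Matn4*, a rule gene, had stage ratios of 2.91 in rule cells and 3.38 in other cells, and *Lect1* of 4.05 and 3.59. *Col2a1* rose in rule cells, with a ratio of 1.69 (1.64 to 1.75), and had a ratio of 0.93 in other cells. Other genes with very large stage ratios had them in both groups. *Nme2* (5.03 and 5.47) and *Gm10073* (4.93 and 4.90) were higher at E13.5, and *Rpl29* (0.16 and 0.15), *Fhl2* (0.10 and 0.15), *Lor* (0.09 and 0.10) and *Ier5l* (0.14 and 0.12) were lower. *Rpl29* and the predicted gene *Gm10073* may share reads with near-identical copies, so their counts are uncertain. The immediate early genes *Egr1* and *Egr2* fell from 362 to 40.2 CPM and from 59.1 to 4.24 CPM in rule cells, and fell in other cells too. What the change of enzyme contributed to these differences was not tested.

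The rule cells were not 1 uniform group. Each library was clustered with the 6 rule genes left out, and the clusters are called by number and leading genes. Shares are given for cells at their full depth, as for every count of rule cells, and then at 3000 UMIs per cell. At E12.5, a cluster of 625 cells led by *Lect1*, *Col9a3*, *Col9a1* and *Fibin* held 483 rule cells, which was 51.4% of all rule cells and 77.3% of the cluster (53.0% at 3000 UMIs). A cluster of 519 cells led by genes of mitosis such as *Ckap2l* and *Sgol2a* held 277 rule cells, 53.4% of the cluster (23.9% at 3000 UMIs). Next came a cluster of 92 cells led by *Thbs4* and *Tm4sf1*, with *Mkx* among its leading genes, at 28.3% (9.78%), followed by a cluster of 91 cells led by *Lpl* and *Runx2* at 12.1% (3.30%). Over all cells, *Col2a1* was at 675 CPM in the *Lect1* cluster and at 423 CPM in the *Ckap2l* cluster. A further cluster of 564 cells led by *Hist1h1b*, *Top2a* and *Ube2c* had as much *Top2a*, a gene of dividing cells, as the *Ckap2l* cluster (1018 and 960 CPM), but *Col2a1* at 77.9 CPM and 5.14% of its cells in the rule (0.355%). The summed cartilage list was at 1402 CPM in the *Ckap2l* cluster and at 293 CPM in the *Top2a* cluster.

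At E13.5, a pair of clusters that differed in *Matn1* and *Gdf5* held more rule cells than any other. A cluster of 629 cells led by *Matn1*, *Gdf10*, *Epyc* and *Col9a3* held 601 rule cells, 31.8% of all rule cells and 95.5% of the cluster (85.9%, 82.9 to 88.5, at 3000 UMIs). Another of 624 cells led by *Gdf5*, *Prss23*, *Dkk3* and *Nog* held 531, which was 28.1% of all rule cells and 85.1% of the cluster (69.6%, 65.8 to 73.1, at 3000 UMIs). In the 601 rule cells of the *Matn1* cluster, *Matn1* was at 300.3 CPM, *Acan* at 92.4 CPM and *Gdf5* at 8.81 CPM. In the 531 rule cells of the *Gdf5* cluster, *Matn1* was at 27.8 CPM, *Acan* at 54.6 CPM and *Gdf5* at 160.3 CPM. *Erg*, a factor of joint-forming cells, was at 43.5 CPM in the former and 81.0 CPM in the latter. *Col2a1* was high in both, at 1584 and 1128 CPM, and *Nog* was nearly level, at 72.3 and 68.8 CPM. These genes helped to make the clusters, so the values describe them and test nothing.

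**Figure D5:**
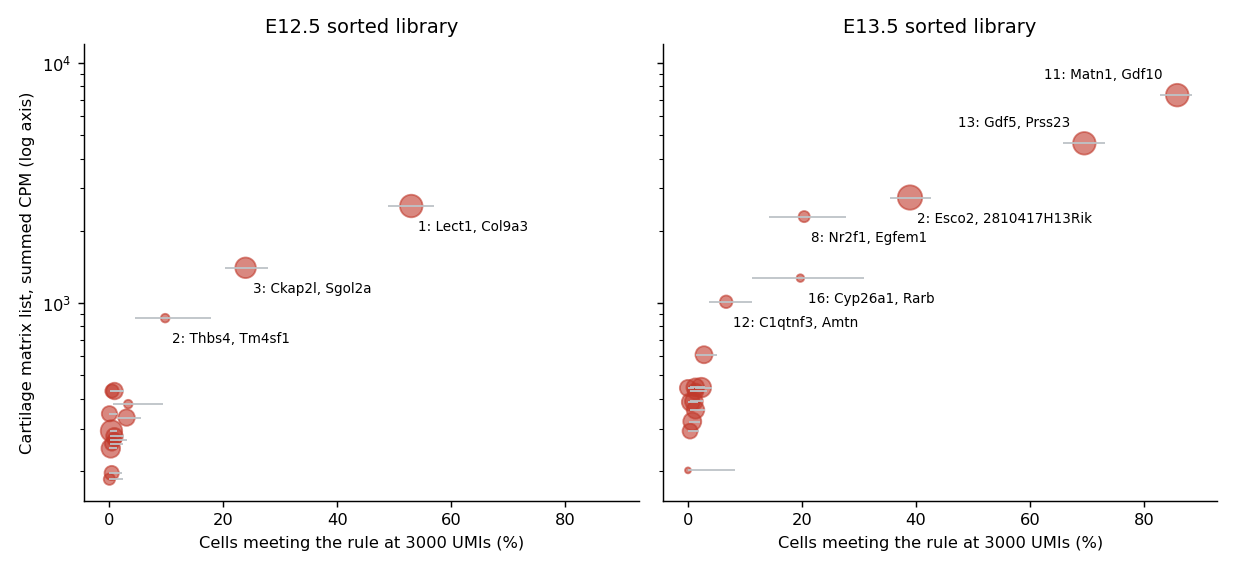
Share of each cluster's cells that met the rule at 3000 UMIs per cell (percent, with exact 95% binomial intervals), for clusters made without the 6 rule genes in the E12.5 and E13.5 libraries. At E13.5 the *Matn1* and *Gdf5* clusters stand at 85.9% and 69.6%, and most clusters lie near 0.

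A cluster of 729 cells led by *Esco2* and histone genes, which are active while DNA is copied, held 417 rule cells, 22.0% of those at E13.5. They had *Col2a1* at 1021 CPM, *Matn1* at 107.9 CPM and *Gdf5* at 43.1 CPM, between the levels of the *Matn1* and *Gdf5* clusters for these last 2 genes. A small cluster of 152 cells led by *Nr2f1*, *Egfem1* and *Otor* held 71 rule cells, 46.7% of the cluster (20.4%, 14.3 to 27.7, at 3000 UMIs). They had *Col2a1* at 581 CPM, *Col9a3* at 311 CPM and no *Matn1* UMI, which allows up to 5.59 CPM. A cluster of 71 cells led by *Cyp26a1*, *Rarb* and *Msx1* held 29 rule cells, 40.8% of the cluster (19.7%, 11.2 to 30.9, at 3000 UMIs). Over all its cells *Gdf5* was at 265 CPM, above the 156 CPM of the *Gdf5* cluster, and *Col2a1* at 263 CPM. A cluster of 194 cells led by *C1qtnf3*, with the tendon genes *Thbs4* and *Tnmd* among its leading genes, held 49 rule cells, 25.3% of the cluster (6.70% at 3000 UMIs). Joint genes over all rule cells gave 3 of 6 higher and 2 lower at both stages: *Gdf5*, *Erg* and *Sfrp2* were higher, and *Wnt9a* and *Col3a1* lower.

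Markers of lineages outside connective tissue were scarce in both groups of cells, and the sort had excluded blood and endothelial lineages. Not 1 rule cell had at least 3 of 8 glial, myogenic, endothelial, immune, epithelial or erythroid markers, while 1 at E12.5 and 4 at E13.5 had at least 3 of 8 mural ones, against 16 and 14 other cells (0.107% against 0.424% and 0.211% against 0.331%). Among other cells at E12.5, 3 had myogenic, 1 endothelial, 5 epithelial and 1 erythroid markers by this measure, and 0 had glial or immune ones. At E13.5, 3 other cells had endothelial and 2 epithelial markers, and 0 had glial, myogenic, immune or erythroid ones. These counts are of cells at full depth. At 3000 UMIs the count in rule cells was 0 for each of these lists, the mural one included. Such a count allows shares of up to 0.611% for E12.5 and 0.220% for E13.5. The endothelial genes *Cdh5* and *Emcn*, the immune genes *Cd52*, *Tyrobp*, *C1qa* and *C1qb* and the epithelial gene *Krt14* had 0 UMIs in rule cells at both stages. The summed myogenic markers stood at 0.689 and 0.803 CPM, the immune ones at 0.689 and 0.657 CPM, and the epithelial ones at 39.04 and 23.6 CPM, the latter below the 61.8 and 53.2 CPM of other cells. The glial markers ran the other way, at 13.9 CPM in rule cells against 5.75 CPM in other cells at E12.5 and at 16.9 against 4.54 CPM at E13.5, and their part in the results was not tested. The endothelial ones were at 19.5 against 24.1 CPM and at 30.3 against 30.2 CPM, with *Cldn5* higher in rule cells at E13.5 (21.3 against 11.96 CPM, a ratio of 1.78, 1.53 to 2.08). Mural markers were at 37.6 and 42.8 CPM in rule cells against 64.2 and 54.1 CPM.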

How the data were processed

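The authors pooled forelimbs per stage, sorted tdTomato+ cells, made droplet libraries and counted UMIs with Cell Ranger (version 3.0.2 per the file headers) on a modified mm10 genome; the values used are the deposited raw UMI counts per gene and cell (28001 features, 3 of them added sequences). The E12.5 and E13.5 libraries held 4987 and 6896 barcodes with 44640777 and 46648357 UMIs. Cells under 3000 UMIs (272 and 771) or over 10% mitochondrial UMIs (1 and 2) were left out here.

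UMIs were summed over rule cells and over other cells of a library and scaled to CPM, with exact Poisson intervals. Ratios have exact conditional binomial intervals and shares exact Clopper-Pearson intervals, all at 95%. Where a count of 0 is said to allow up to a level, that level is 3 counts over the cells or UMIs read. This is an approximation and not the exact interval. A gene was tested at 10 CPM or more in the higher group and called at 1.5-fold with an interval that left out 1. With 1 library per stage no p-value was computed. The intervals cover counting error, and the spread between embryos or libraries is not in them.

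The members and gene lists were chosen with earlier results of these data known. Genes are named if they are in a list, or are among the 10 highest or 6 lowest ratios of CPM plus 1 in a library (6 and 6 between stages) at 50 CPM or more. Haemoglobin genes, the added sequences, the rule genes and those of mitochondria or sex chromosomes were passed over. *Celf2*, *Phlda2* and *Moxd1* were named after their values were seen, as were the leading genes of clusters. Cells were clustered with scanpy 1.11.5 (2000 variable genes, 30 components, 25 neighbours, Leiden resolution 1). The doublet caller marked 1 of 4714 and 0 of 6123 cells and so did not work; doublets were not removed. Promoter sequences come from RefSeq, GRCm38.p6, and gene positions from GENCODE on GRCm38. The calculations used Python 3.11.15 and scipy 1.17.1 and were tested on simulated counts.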

Additional observations from a re-analysis of the deposited data

Results flagged for a closer look

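The comparison of rule cells with other cells went in opposite directions at E12.5 and E13.5 for 4 genes, each past 1.5-fold at both stages. The difference was not tested, since there was 1 library per stage. *Epyc* had a log2 ratio of −0.85 at E12.5 and 2.53 at E13.5. *Phlda2*, an imprinted gene of placental growth, was at 11.3 against 24.1 CPM at E12.5 and at 25.7 against 11.4 CPM at E13.5, log2 ratios of −1.10 and 1.18. *Moxd1*, a monooxygenase-like gene, was at 10.9 against 18.9 CPM and at 19.2 against 9.94 CPM, log2 ratios of −0.79 and 0.95. *Celf2*, an RNA-binding protein gene, ran the other way, with 126 against 83.3 CPM at E12.5 and 46.4 against 106 CPM at E13.5, log2 ratios of 0.59 and −1.19. No alternative setting changed a sign among the 8 values, but the E12.5 call was kept under 7 of 12 settings for *Epyc*, 8 for *Celf2*, 9 for *Moxd1* and 10 for *Phlda2*.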

How the results depend on the processing

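Of 228 called values of single genes in 12 alternative settings (2736 in all), 2469 kept their call, 265 lost it and 2 changed sign: *Mki67* (log2 ratio −0.97) and *Cenpf* (−0.42) at E13.5, when cells with 3 mitotic markers, these genes among them, were left out. A threshold of 50 CPM cost 93 calls, a 2-fold threshold 69 and a rule of at least 2 genes 45. The share of cells in the rule depended on depth and on the rule. At E12.5 (19.9%) it was 10.4% thinned to 3000 UMIs, 33.5% with at least 2 genes, 12.7% with at least 4, and 16.2%, 16.5%, 13.4%, 15.5% and 16.6% without *Sox5*, *Sox6*, *Sox9*, *Matn4* and *Wwp2*. At E13.5 (30.9%) these were 22.2%, 44.3%, 22.8%, 27.6%, 27.9%, 23.7%, 24.4% and 26.9%, and 29.1% with at least 5000 UMIs. Genes called numbered 855 at E12.5, 1175 at E13.5 and 1065 between the stages. With 50 CPM these were 277, 393 and 364, and with no minimum level 2065, 2857 and 2236. At 2-fold there were 318 and 520, and with at least 2 rule genes 557 and 780. The shares of mitotic cells, 22.4% and 21.2% at E12.5 and 20.0% and 16.1% at E13.5 in rule and other cells, were 34.2%, 26.5%, 26.6% and 19.7% unthinned. The median log2 ratio of the cartilage list ran from 2.67 to 3.12 and from 3.48 to 4.01. Leaving out called doublets was not run, because the caller did not work. No paired analysis was possible because each stage had 1 library. Low genes are limited by depth: 3 UMIs are 0.345 CPM in the E12.5 rule cells.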

Other observations

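Glycolysis and hypoxia genes did not separate rule cells at E12.5, where 0 of 9 passed the threshold in either direction, but 5 of 9 were higher and 0 lower at E13.5. *Ldha*, lactate dehydrogenase A, was at 899 against 771 CPM at E12.5 and at 1490 against 934 CPM at E13.5, ratios of 1.17 and 1.60. *Bnip3*, a hypoxia-induced mitophagy gene, was at 59.4 against 51.7 CPM and at 111 against 53.6 CPM, ratios of 1.15 (1.04 to 1.27) and 2.08 (1.94 to 2.22). *Slc2a1*, the glucose transporter GLUT1, was at 44.0 against 44.3 CPM and at 75.5 against 41.4 CPM. *Eno1* and *Pdk1* were the other genes that were higher, and *Vegfa* was not, at 22.1 against 21.4 CPM at E13.5. Between the stages 7 of 9 genes of this list were higher at E13.5 in rule cells and 2 of 9 in other cells, whereas 5.73% and 4.31% of all genes tested were.

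Mitotic genes were near the threshold. At E12.5, 0 of 8 passed the threshold, with ratios from 1.24 to 1.43. At E13.5, 5 of 8 did, with ratios from 1.51 to 1.70, and 3 of these 5 (*Mki67*, *Ccnb1* and *Hmmr*) were under 1.5-fold after thinning and after weighting for depth. Of the immediate early genes, 5 of 8 were higher at E12.5 and 3 of 9 at E13.5, where the list's median log2 ratio was −0.02 against 0.74 at E12.5, with *Fos* at 1022 against 464 CPM and at 530 against 247 CPM. Their dependence on dissociation was not tested.

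*Sox10*, a gene best known from glia, was at 1.49 against 0.141 CPM at E12.5 and at 8.62 against 0.631 CPM at E13.5, below the 10 CPM threshold, with a ratio of 13.7 (8.45 to 23.2) at E13.5. The glial genes *Foxd3*, *Cdh19* and *Sox2* were at 0 in the E12.5 rule cells and at 0.073 CPM or less at E13.5. *Cspg4*, listed here as a mural gene, was at 18.2 against 3.12 CPM at E13.5, while the mural genes *Acta2* and *Rgs5* were lower. *Twist2*, from the dermal list, was at 180.5 against 75.5 CPM and at 174 against 99.5 CPM, while *Lrig1* and *Nkd2* of the same list were lower. The sclerotome genes *Meox1* and *Tbx18* were lower in rule cells at E13.5, with ratios of 0.66 and 0.54, and *Meox2* passed the threshold at neither stage.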
